A study of Mus musculus with 12 samples.

Results

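The respiratory chain and the ATP synthase are built from subunits of 2 genomes, and 94 genes of both were followed in the RNA of mouse jejunal enteroids lacking Hdac1 or Hdac2. Members were chosen by gene symbol alone (the Nduf, Sdh, Uqcr, Cyc1, Cox, Atp5 and mt- subunit symbols, without 3 rows whose symbol contains -ps), which gave 94 of the 18929 genes in the deposited tables. Of these, 81 are nuclear genes and 13 are the protein-coding genes of mitochondrial DNA. The nuclear genes fall to complex I (35), complex II (4), complex III (9), complex IV (16) and complex V, the ATP synthase (15), and 2 further ones, Atp5s and Atp5sl, carry an Atp5 symbol without being subunits. The mitochondrial genes encode 7 subunits of complex I, 1 of complex III, 3 of complex IV and 2 of complex V.

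Electrons from NADH enter at complex I and those from succinate at complex II, pass over ubiquinone to complex III and over cytochrome c to complex IV, where oxygen is reduced. Complexes I, III and IV pump protons across the inner mitochondrial membrane, and the gradient drives the ATP synthase. Complex II is the only complex made of nuclear-encoded subunits alone. Mitochondrial DNA is transcribed from both strands into long precursors that are cut into messenger, ribosomal and transfer RNAs, whereas each nuclear subunit has a promoter of its own. In the intestinal epithelium, the villus enterocyte is rich in mitochondria.

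The libraries came from enteroids, cultures of intestinal epithelium grown from crypts, kept for 5 days in ENR medium. There were 4 control (villin-Cre, wild-type Hdac1 and Hdac2), 4 Hdac1-deficient (labelled HDAC1-/-) and 4 Hdac2-deficient (labelled HDAC2-/-) libraries, called Hdac1 mutants and Hdac2 mutants below. The mice carried floxed alleles and a Cre transgene driven by the villin promoter, active in intestinal epithelium, on a C57BL/6J, 129SV and CD1 mixed background. Their age is not given in the sources used here. The methods name 1 mouse of each genotype as the crypt source, so p-values measure the spread between libraries. Genotype cannot be told apart from the mouse, its sex or the line it came from.

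Reads counted on genes numbered 20693200 to 30658628 per library, and 3 counts, the floor of detection, equalled 0.0972 to 0.145 CPM (counts scaled by TMM to a common library total), a floor that covers counting error only. In control enteroids, Hdac1 mutants and Hdac2 mutants, Hdac1 RNA stood at 90.5 ± 2.87, 4.23 ± 0.841 and 75.3 ± 4.41 CPM (SD, n = 4), and Hdac2 RNA at 137 ± 4.39, 112 ± 3.7 and 75.9 ± 2.84 CPM. Of 10 enterocyte markers all 10 were increased in both mutants (called as described below), beside 32.7% of all genes in Hdac1 mutants and 31.4% in Hdac2 mutants. Their summed level ran from 9822 to 10457 CPM in control, 18936 to 21476 CPM in Hdac1 mutants and 15228 to 17035 CPM in Hdac2-deficient libraries. The summed level of 6 stem cell markers ran from 3643 to 3853, 2102 to 2443 and 1765 to 1965 CPM in the same order. Those of 6 Paneth cell markers ran from 2121 to 2482, 3105 to 3368 and 3383 to 3530 CPM, and those of 7 goblet cell markers from 1889.6 to 2110.4, 1938 to 2077 and 2996 to 3223 CPM. Single markers went both ways in Hdac1 mutants. There 2 of 6 Paneth markers (33.3%) were increased and 1 decreased (16.7%), and of 7 goblet markers 3 (42.9%) and 2 (28.6%). All genes gave 32.7 and 31.9%. In Hdac2 mutants 5 Paneth and all 7 goblet markers were increased and none decreased, beside 31.4 and 30.9% of all genes. Of 10 markers of non-epithelial cells 6 were listed, with sums of 4.89 to 7.04 CPM over the 12 libraries and none of the 6 at 0 throughout a group, and Col1a2, Cd3e, Kdr and Des were not listed. The part of this change in cell make-up in the results that follow was not tested, and in such bulk RNA fewer cells of a type and less RNA per cell cannot be told apart.

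Transcripts of mitochondrial DNA took a larger share of the counts in the mutants, and most of all in Hdac1 mutants. The 13 mitochondrially encoded members made up 1.36, 1.28, 1.31 and 1.35% of all gene counts in the control libraries, 2.58, 2.43, 2.26 and 2.43% in the Hdac1-deficient libraries and 1.56, 1.39, 1.54 and 1.63% in the Hdac2-deficient libraries. The 3 groups did not overlap, and their means ± SD (n = 4) were 1.33 ± 0.037, 2.42 ± 0.131 and 1.53 ± 0.101%. The 81 nuclear members together took 1.74 to 1.88% of counts in control, 1.69 to 1.77% in Hdac1 mutants and 1.78 to 1.83% in Hdac2-deficient libraries. Each mutant overlapped control, and the mutants did not overlap each other. The ratio of mitochondrially encoded to nuclear member counts was 0.721 to 0.748 in control, 1.28 to 1.52 in Hdac1 mutants and 0.771 to 0.908 in Hdac2-deficient libraries. The other rows with an mt- symbol, ribosomal and transfer RNAs, made up 0.224 to 0.241, 0.266 to 0.31 and 0.25 to 0.276% of counts in the same order.

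**Figure D1:**
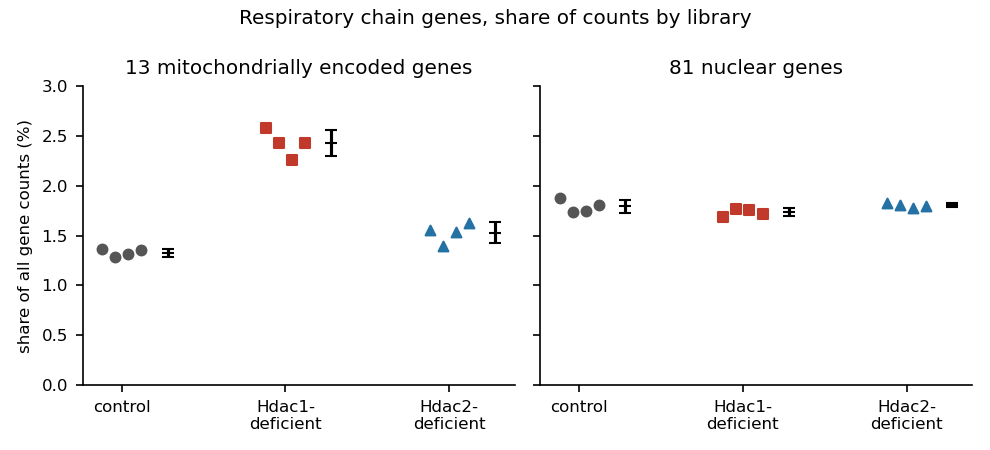
Share of all gene counts (%, linear axis from 0) taken by the 13 mitochondrially encoded and the 81 nuclear members; each point is 1 library and the bar is the mean ± SD of 4 libraries. The mitochondrial share lies at 1.28 to 1.36% in control and 2.26 to 2.58% in Hdac1-deficient libraries, while the nuclear share lies between 1.69 and 1.88% in all 12.

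Against control, 12 of the 13 mitochondrial members were increased in Hdac1 mutants (called where edgeR's quasi-likelihood test gave an adjusted p no higher than 0.05) and none was decreased, where 32.7% of the 14246 genes tested were increased and 31.9% decreased. In Hdac2 mutants 12 mitochondrial members were tested, and 6 were increased and 2 decreased, beside 31.4 and 30.9% of 14007 genes. Their median log2 fold change was 0.73 in Hdac1 mutants and 0.16 in Hdac2 mutants, beside 0.00 over all genes in both. Compared directly, 12 of 13 were higher and none lower in Hdac1 mutants than in Hdac2 mutants, with a median log2 difference of 0.79, beside 22.3% of 14510 genes higher and 23.7% lower. A fold change over 2 at that threshold was found for 5 mitochondrial members and 1 nuclear member in Hdac1 mutants (10.6% of all genes), for 1 nuclear member in Hdac2 mutants (8.3% of all genes) and for 3 mitochondrial members in the direct comparison (5.62% of all genes).

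The 13 genes did not all give values of the same worth, because a stretch of chromosome 1 holds near-identical copies of part of mitochondrial DNA. Unprocessed pseudogenes there, between positions 24611535 and 24616197 on the minus strand of GRCm38, hold 97.6 to 99.9% of the 100-base windows of mt-Nd3, mt-Nd4l, mt-Co2, mt-Co3 and mt-Atp6, 60.8% of those of mt-Nd4, and together with copies on chromosome 2, 30.8% of those of mt-Co1. To show how close these are, the opening 90 bases of mt-Atp6 (chrM:7927-8016, plus strand) and mt-Co2 (chrM:7013-7102, plus strand) are given with those of their copies Gm10925 (chr1:24614562-24614651, minus strand) and Gm28661 (chr1:24615476-24615565, minus strand). Capitals would mark a base that differs within a pair.
mt-Atp6: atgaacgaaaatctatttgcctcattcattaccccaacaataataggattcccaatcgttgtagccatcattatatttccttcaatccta
Gm10925: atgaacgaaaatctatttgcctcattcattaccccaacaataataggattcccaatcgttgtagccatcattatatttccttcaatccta
mt-Co2: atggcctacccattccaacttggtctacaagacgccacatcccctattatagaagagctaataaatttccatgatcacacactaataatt
Gm28661: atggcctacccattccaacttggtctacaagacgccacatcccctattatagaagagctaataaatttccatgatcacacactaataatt
Both pairs are alike at every base printed, and over the 678 and 681 bases that could be aligned without gaps they had 0 mismatches. A 100-base read from such a window has more than 1 origin, and how the counting treated it is not given in the sources used here. For mt-Nd1, mt-Nd5, mt-Nd6 and mt-Cytb no window was shared, and for mt-Nd2 3.19% were. For mt-Atp8 no annotated copy was found, but it lies between mt-Co2 and mt-Atp6, both of which are copied, and it is counted with the uncertain genes.

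The 7 genes that are not copied almost wholly, mt-Atp8 apart, stood highest. In control enteroids, and per kilobase of exon (RPKM), mt-Co1 was at 4671 ± 75.9, mt-Nd1 at 2044 ± 124, mt-Cytb at 1195 ± 57.4, mt-Nd2 at 988 ± 49.3, mt-Nd5 at 614 ± 54.1, mt-Nd4 at 350.1 ± 19.1 and mt-Nd6 at 54.8 ± 13.2 (SD, n = 4), and the neighbours in this order differed by more than their SDs. The 6 others lay between 0.852 (mt-Nd4l) and 8.51 (mt-Atp6). The length used holds all exonic bases, though 60.8% of the windows of mt-Nd4 and 30.8% of those of mt-Co1 are shared. The SDs do not cover this, and its part in the order was not tested. The highest nuclear members on this scale were Cox8a (764 ± 42.9), Atp5a1 (621 ± 14.7) and Atp5b (576 ± 14.9).

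**Figure D2:**
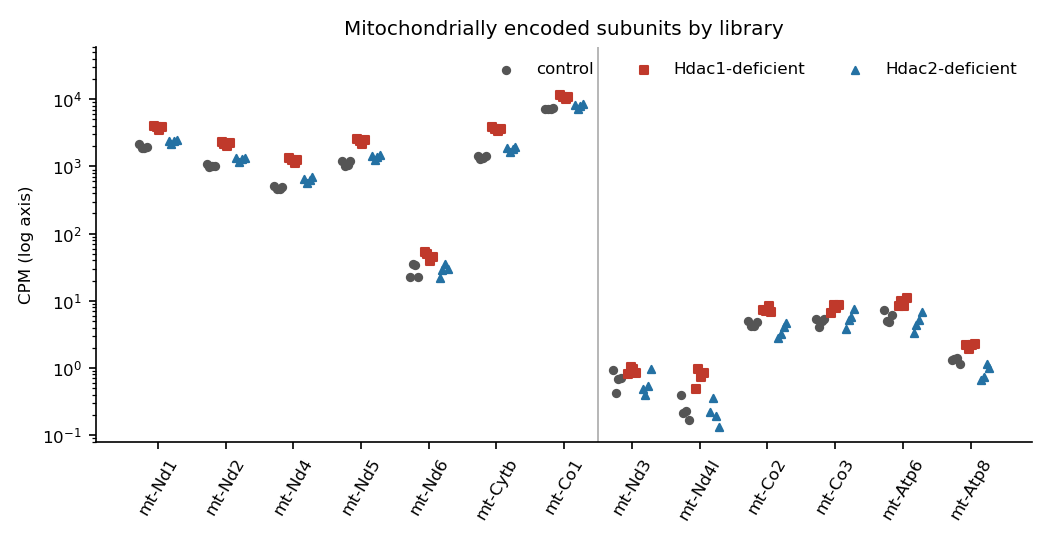
Level of the 13 mitochondrially encoded members (CPM, log axis) in each of the 12 libraries. The vertical line parts the 7 genes that stood at high or middle levels from the 6 low genes, of which 5 lie almost wholly in chromosome 1 copies, and in the left part the Hdac1-deficient libraries lie above every other library.

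Complex I holds most of the mitochondrially encoded subunits, which form the proton-pumping membrane arm. mt-Nd1, the subunit at the ubiquinone site, was at 2128, 1855, 1911 and 1932 CPM in the control libraries, 3956, 3820.2, 3434 and 3873 CPM in the Hdac1-deficient libraries and 2373, 2169, 2383 and 2501 CPM in the Hdac2-deficient libraries. All Hdac1-deficient libraries lay above all others, and all Hdac2 mutants above all control libraries. Its log2 fold change (SE and adjusted p in parentheses, here and below) was 0.96 (0.05, adjusted p = 2.1e-12) in Hdac1 mutants and 0.28 (0.04, adjusted p = 2.8e-05) in Hdac2 mutants. mt-Nd2, mt-Nd4 and mt-Nd5, the pump-like subunits, followed the same order. mt-Nd2 stood at 1095, 973, 1009 and 1026 CPM in the control libraries, 2295, 2142, 1996 and 2246 CPM in the Hdac1-deficient libraries and 1316, 1164, 1279 and 1354 CPM in the Hdac2-deficient libraries. Its log2 fold changes were 1.09 (0.04, adjusted p = 6.3e-14) and 0.33 (0.04, adjusted p = 3.5e-06). mt-Nd4 was counted at 508, 457, 463 and 502 CPM in the control libraries, 1327, 1230.4, 1120.2 and 1243 CPM in the Hdac1-deficient libraries and 658, 567, 626 and 691 CPM in the Hdac2-deficient libraries. It changed by 1.36 (0.05, adjusted p = 7.4e-14) and 0.41 (0.06, adjusted p = 6.1e-05), and 60.8% of its windows lie in a copy. For mt-Nd5 the levels were 1188, 1029, 1043 and 1221 CPM in the control libraries, 2560.2, 2362, 2174 and 2434 CPM in the Hdac1-deficient libraries and 1449, 1233, 1369 and 1462 CPM in the Hdac2-deficient libraries. The log2 fold changes were 1.10 (0.06, adjusted p = 1.9e-09) and 0.31 (0.07, adjusted p = 0.0052). In all 3 genes the groups were again apart from each other without overlap.

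mt-Nd6 is the only messenger encoded on the other strand of the mitochondrial genome (chrM:13552-14070, minus strand), and its end lies over that of mt-Nd5. It stood at 22.5, 34.7, 34.1 and 22.5 CPM in the control libraries, 52.8, 49.6, 38.8 and 45.0 CPM in the Hdac1-deficient libraries and 21.8, 28.6, 34.7 and 29.7 CPM in the Hdac2-deficient libraries. The Hdac2-deficient libraries overlapped control. The log2 fold change was 0.71 (0.19, adjusted p = 0.013) in Hdac1 mutants and 0.00 (0.22, adjusted p = 0.99) in Hdac2 mutants. Whether the counting kept to the strand is not given in the sources used here, so reads of the opposite strand cannot be told apart from those of mt-Nd6.

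The mitochondrial subunits of complexes III and IV rose to unequal extents. mt-Cytb, the cytochrome b of complex III that carries both ubiquinone sites, was at 1429.9, 1290, 1336 and 1413 CPM in the control libraries, 3859, 3669.6, 3351 and 3591 CPM in the Hdac1-deficient libraries and 1895, 1626, 1795 and 1965 CPM in the Hdac2-deficient libraries. It gave the largest increase among genes without copies in Hdac1 mutants, at 1.42 (0.04, adjusted p = 7.5e-16), and 0.42 (0.05, adjusted p = 6.9e-06) in Hdac2 mutants. mt-Co1, the catalytic subunit of complex IV with its haems and copper, was the highest of all members and stood at 7267, 7094, 7149 and 7355 CPM in the control libraries, 11561, 10869, 10015 and 10831 CPM in the Hdac1-deficient libraries and 8215, 7237, 7912 and 8516 CPM in the Hdac2-deficient libraries. Here the lowest Hdac2-deficient library lay within the control range. Its log2 fold change was 0.60 (0.04, adjusted p = 2.1e-10) and 0.15 (0.04, adjusted p = 0.0024).

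Copies leave the remaining 6 genes uncertain, and in Hdac2 mutants 2 of the 5 that were tested passed, both lower. mt-Co2 and mt-Co3, the other subunits of the complex IV core, had log2 fold changes of 0.70 (0.09, adjusted p = 1.9e-06) and 0.68 (0.10, adjusted p = 8.9e-06) in Hdac1 mutants and of -0.32 (0.13, adjusted p = 0.045) and 0.17 (0.17, adjusted p = 0.43) in Hdac2 mutants. mt-Atp6 and mt-Atp8, the ATP synthase subunits of the membrane sector, gave 0.71 (0.12, adjusted p = 0.0001) and 0.73 (0.15, adjusted p = 0.00029) in Hdac1 mutants and -0.25 (0.21, adjusted p = 0.35) and -0.56 (0.21, adjusted p = 0.028) in Hdac2 mutants. The 2 members called in both mutants with opposite signs were thus mt-Co2, with Hdac2-deficient libraries at 2.8, 3.24, 4.02 and 4.6 CPM against 4.92, 4.26, 4.19 and 4.83 CPM in control, and mt-Atp8, with 0.663, 0.742, 1.16 and 0.997 against 1.31, 1.34, 1.39 and 1.13 CPM. Both decreases were lost with DESeq2 (adjusted p = 0.073 and 0.074). That of mt-Co2 was also lost without control replicate 1 or 4 or Hdac2-deficient replicate 1 or 2 (adjusted p = 0.084, 0.092, 0.2 and 0.13), and that of mt-Atp8 without control replicate 2 or 3 or Hdac2-deficient replicate 1 or 2 (adjusted p = 0.055, 0.064, 0.097 and 0.08). mt-Nd3 had 10 to 32 counts per library and log2 fold changes of 0.41 (0.24, adjusted p = 0.14) and -0.24 (0.31, adjusted p = 0.51). mt-Nd4l had 4 to 12 counts in control, 13 to 30 in Hdac1 mutants and 3 to 9 in Hdac2-deficient libraries, and changed by 1.56 (0.32, adjusted p = 0.00025) in Hdac1 mutants, while it was too low to be tested in the other comparison.

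The next counts take the 5 genes of under 5% shared windows that remain once mt-Atp8 is left out. Of these, 5 of 5 were increased in Hdac1 mutants and 4 of 5 in Hdac2 mutants, beside 32.7 and 31.4% of all genes. Their median log2 fold changes were 1.09 and 0.31. mt-Atp8, also with under 5% shared windows, was increased in Hdac1 mutants, at 0.73, and decreased in Hdac2 mutants, at -0.56. The copies themselves were listed as well. Summed over the 7 of them on chromosome 1 they stood at 38.8 ± 3.4 CPM in control, 56.5 ± 3.31 CPM in Hdac1 mutants and 37.6 ± 6.48 CPM in Hdac2 mutants (SD, n = 4). For Gm10925 the log2 fold change was 0.69 (0.07, adjusted p = 7.3e-08) in Hdac1 mutants and 0.15 (0.08, adjusted p = 0.12) in Hdac2 mutants, and for Gm28661 it was 0.29 (0.07, adjusted p = 0.002) and -0.56 (0.13, adjusted p = 0.0013).

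Between the mutants, mitochondrial transcripts were higher in Hdac1 mutants. The log2 difference, given as Hdac1 minus Hdac2 here and below, was 0.68 (0.05, adjusted p = 9.5e-10) for mt-Nd1, 0.76 (0.05, adjusted p = 1.3e-10) for mt-Nd2, 0.95 (0.06, adjusted p = 2.6e-08) for mt-Nd4, 0.79 (0.07, adjusted p = 2.1e-06) for mt-Nd5 and 0.71 (0.19, adjusted p = 0.012) for mt-Nd6. mt-Cytb differed by 0.99 (0.05, adjusted p = 9.5e-11) and mt-Co1 by 0.44 (0.04, adjusted p = 1.1e-08). The over 2-fold differences were in 3 uncertain genes, mt-Nd4l at 1.72 (0.34, adjusted p = 0.00019), mt-Atp8 at 1.28 (0.18, adjusted p = 2e-06) and mt-Co2 at 1.02 (0.12, adjusted p = 6.9e-08). mt-Nd3 gave 0.65 (0.28, adjusted p = 0.057) and was not called. The ribosomal RNAs of the same genome differed less: mt-Rnr1 by 0.10 (0.04, adjusted p = 0.063) and mt-Rnr2 by 0.11 (0.05, adjusted p = 0.067), neither called, beside 0.28 (0.04, adjusted p = 9.2e-06) and 0.37 (0.05, adjusted p = 2.4e-06) for Hdac1 mutants and 0.18 (0.04, adjusted p = 0.00037) and 0.26 (0.04, adjusted p = 2.2e-06) for Hdac2 mutants against control enteroids. The libraries were poly(A)-selected, and the part of that selection in the ribosomal RNA counts was not tested.

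Nuclear members changed little. Of 79 tested, 18 were increased and 19 decreased in Hdac1 mutants, 22.8 and 24.1%, below the 32.7 and 31.9% of all genes. In Hdac2 mutants 30 were increased (38.0%, beside 31.4% of all genes) and 10 decreased (12.7%, beside 30.9%). The median log2 fold changes were -0.01 and 0.06. In the direct comparison 30 were lower and 2 higher in Hdac1 mutants than in Hdac2 mutants, 38.0 and 2.53% of those tested, where 23.7 and 22.3% of all genes were, and the median difference was -0.07. Cox6a2 and Ndufa4l2 were too low to be tested.

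**Figure D3:**
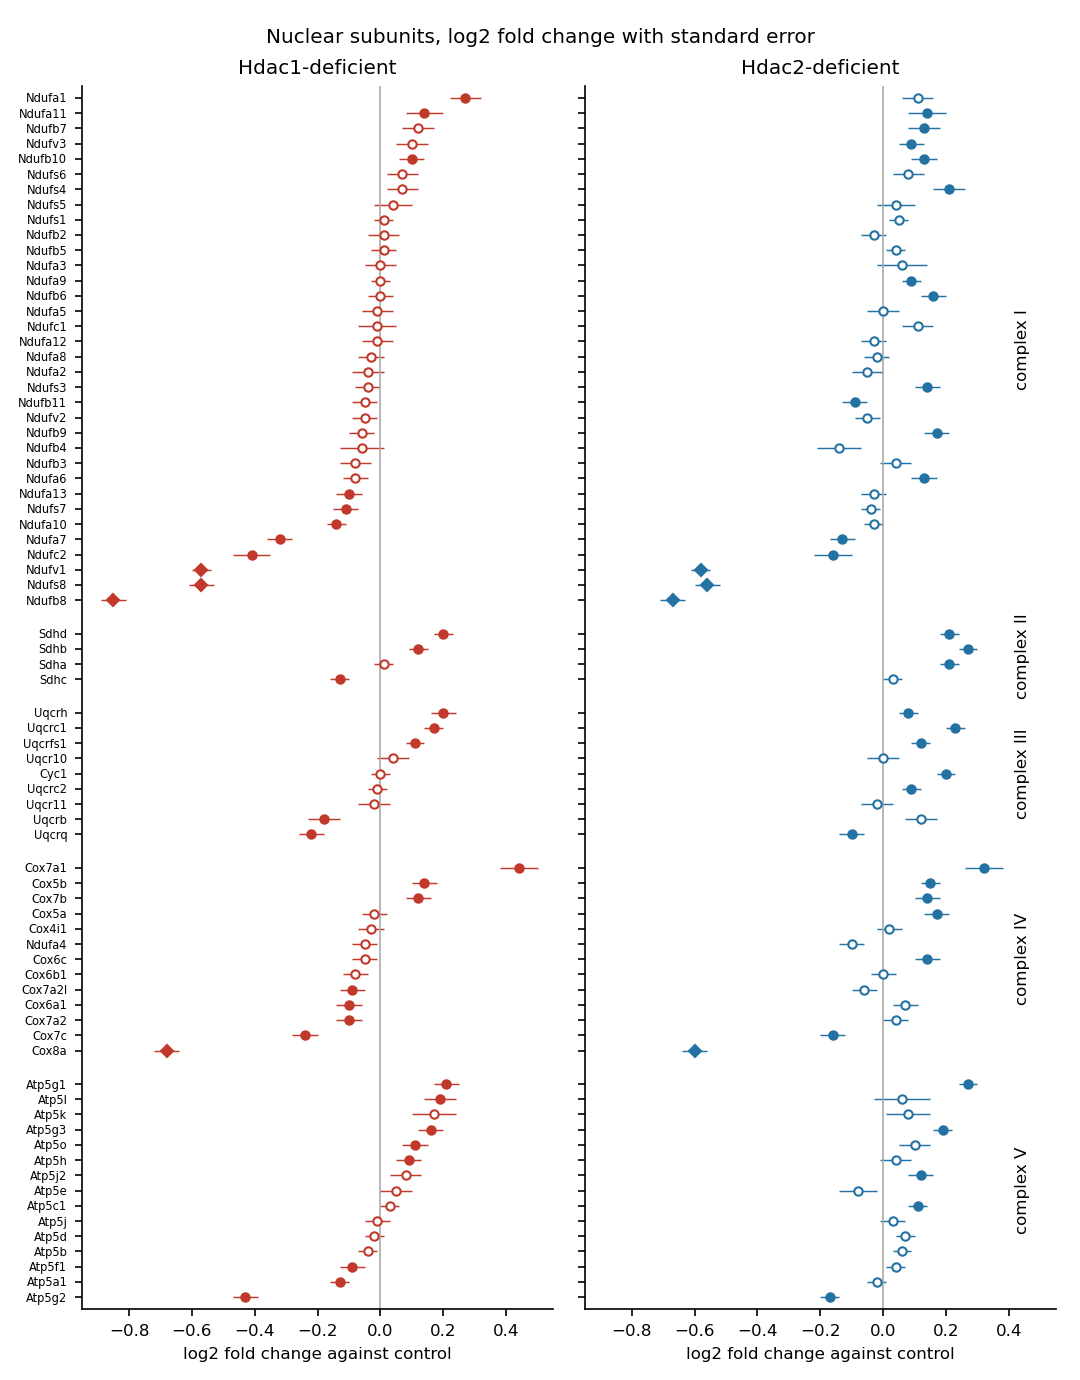
Log2 fold change against control (x axis, points with SE) of most nuclear subunits tested, by complex and ordered by the Hdac1 value, without Cox6b2, whose values of 3.38 and 3.55 lie off the scale. Filled points have an adjusted p of at most 0.05 and diamonds are the genes of chromosome 19, which hold the 4 lowest values in both panels.

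The 4 nuclear members on chromosome 19 showed the largest decreases, holding ranks 1 to 4 from the lowest of 79 in both mutants. They are Ndufv1 (chr19:4007384-4012806), which carries the flavin at which complex I takes up electrons from NADH, Ndufs8 (chr19:3908863-3912774), an iron-sulphur subunit, Ndufb8 (chr19:44548572-44555440), an accessory subunit, and Cox8a (chr19:7215153-7217616), the ubiquitous form of a small complex IV subunit. Ndufb8 stood at 206, 183, 181 and 195 CPM in the control libraries, 103, 108, 104 and 105 CPM in the Hdac1-deficient libraries and 122, 119, 115 and 119.8 CPM in the Hdac2-deficient libraries. Ndufs8 was at 146, 134, 132 and 135 CPM in the control libraries, 86.7, 94.3, 93.2 and 90.2 CPM in the Hdac1-deficient libraries and 94.6, 93.2, 91.8 and 86.9 CPM in the Hdac2-deficient libraries. For Ndufv1 the levels were 321, 296, 296 and 308 CPM in the control libraries, 199.9, 206, 204 and 205 CPM in the Hdac1-deficient libraries and 206, 209, 202 and 197 CPM in the Hdac2-deficient libraries. In all 3 genes every mutant library lay below every control library. Cox8a, the highest nuclear member per kilobase, showed the same separation, at 511, 457, 454 and 469.7 CPM in the control libraries, 282, 297, 297 and 291 CPM in the Hdac1-deficient libraries and 295, 310.4, 319 and 318 CPM in the Hdac2-deficient libraries.

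The log2 fold changes were -0.85 (0.04, adjusted p = 2.3e-13) and -0.67 (0.04, adjusted p = 2.2e-12) for Ndufb8, -0.57 (0.04, adjusted p = 9.7e-11) and -0.56 (0.04, adjusted p = 1.9e-11) for Ndufs8, -0.57 (0.03, adjusted p = 7e-12) and -0.58 (0.03, adjusted p = 1.3e-12) for Ndufv1, and -0.68 (0.04, adjusted p = 3.5e-12) and -0.60 (0.04, adjusted p = 1.4e-11) for Cox8a, in Hdac1 mutants and Hdac2 mutants. Genes of chromosome 19 were lower as a whole. Of 509 tested there, 373 were decreased (73.3%) and 57 increased (11.2%) in Hdac1 mutants, with a median log2 fold change of -0.52. In Hdac2 mutants 379 of 498 were decreased (76.1%) and 53 increased (10.6%), with a median of -0.51. The other autosomes had 30.4% of genes tested decreased and 33.7% increased in Hdac1 mutants, and 29.2 and 32.4% in Hdac2 mutants. Their median was 0.01 in both. The part of the chromosome in the decrease of the 4 members was not tested. Without these 4 genes, 15 of 75 nuclear members were decreased in Hdac1 mutants and 6 of 75 in Hdac2 mutants. These are 20% and 8%, beside 31.9 and 30.9% of all genes.

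**Figure D4:**
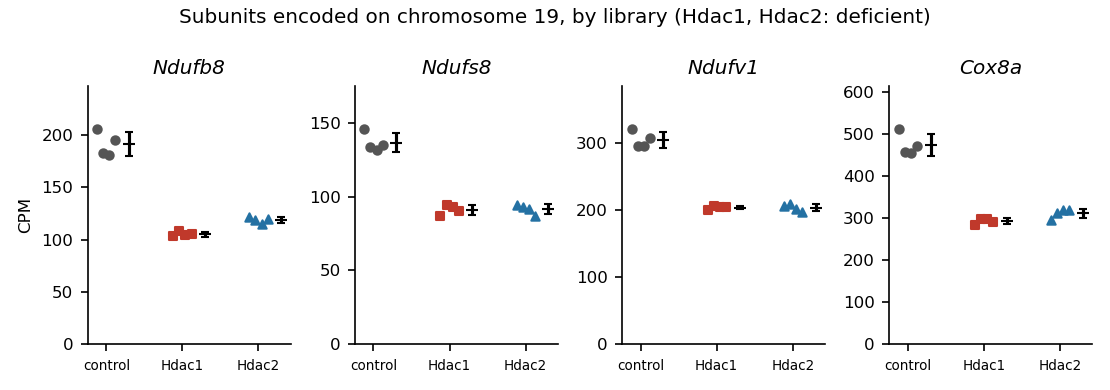
CPM (linear axes from 0) of Ndufb8, Ndufs8, Ndufv1 and Cox8a in each library; bars are the mean ± SD of 4 libraries. In each gene the 4 control libraries lie above all 8 mutant libraries.

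Of the 35 nuclear subunits of complex I, those on chromosome 19 included, 3 were increased and 8 decreased in Hdac1 mutants, and 11 and 6 in Hdac2 mutants. These are 8.57 and 22.9% beside 32.7 and 31.9% of all genes, and 31.4 and 17.1% beside 31.4 and 30.9%, so that the share of increases in Hdac2 mutants was that of all genes. The median log2 fold changes were -0.01 and 0.04. Among the core subunits, Ndufs1 gave 0.01 (0.03, adjusted p = 0.79) and 0.05 (0.03, adjusted p = 0.14). Ndufv2 gave -0.05 (0.04, adjusted p = 0.28) and -0.05 (0.04, adjusted p = 0.36), and neither gene was called. Ndufs3 was called in Hdac2 mutants, at 0.14 (0.04, adjusted p = 0.004), beside -0.04 (0.04, adjusted p = 0.41) in Hdac1 mutants. Its difference between the mutants was -0.18 (0.04, adjusted p = 0.00076). Of the windows of Ndufs3, 19.9% are shared with another gene. Ndufs7 was called in Hdac1 mutants, at -0.11 (0.04, adjusted p = 0.024), a call that did not stand without control replicate 1 or without Hdac1-deficient replicate 1 or 4 (adjusted p = 0.06, 0.096 and 0.074).

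Accessory subunits of complex I, which surround the core, gave its larger changes away from chromosome 19. Among them, Ndufa7 gave -0.32 (0.04, adjusted p = 2.5e-06) in Hdac1 mutants and -0.13 (0.04, adjusted p = 0.012) in Hdac2 mutants. For Ndufs4 the values were 0.07 (0.05, adjusted p = 0.18) and 0.21 (0.05, adjusted p = 0.00072). Ndufc2 was at 92.4, 77.9, 78.8 and 80.7 CPM in the control libraries, 57.4, 64.9, 66.5 and 57.3 CPM in the Hdac1-deficient libraries and 81.7, 71.4, 69.6 and 70.9 CPM in the Hdac2-deficient libraries. Hdac1-deficient libraries lay below all others. Its log2 fold changes were -0.41 (0.06, adjusted p = 3e-05) and -0.16 (0.06, adjusted p = 0.035), the latter lost without control replicate 1 and without Hdac2-deficient replicate 2, 3 or 4 (adjusted p = 0.086, 0.092 and 0.084 for the last 3). Ndufa1, on the X chromosome, changed by 0.27 (0.05, adjusted p = 0.00011) in Hdac1 mutants and 0.11 (0.05, adjusted p = 0.072) in Hdac2 mutants. The X-linked Xist stood at 1.57 ± 0.171 CPM in control, 918 ± 131 CPM in Hdac1 mutants and 584 ± 83.5 CPM in Hdac2 mutants. A difference in sex between the source mice cannot be told apart from genotype, and its part was not tested. Ndufb9 and Ndufb6 were increased in Hdac2 mutants, at 0.17 (0.04, adjusted p = 0.00066) and 0.16 (0.04, adjusted p = 0.00078), and not called in Hdac1 mutants, at -0.06 (0.04, adjusted p = 0.18) and 0.00 (0.04, adjusted p = 0.96). The differences between the mutants were -0.23 (0.04, adjusted p = 1.2e-05) and -0.16 (0.04, adjusted p = 0.0012). Shared windows made up 17.0% of Ndufb9 and 28.2% of Ndufb6. They are shared with Gm49356 and Smim27, genes that overlap these members at the same place in the genome, not with copies elsewhere. Smim27 lies on the strand opposite to Ndufb6.

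Succinate dehydrogenase, complex II, which is also an enzyme of the citric acid cycle, had 3 of its 4 subunits increased in Hdac2 mutants. Sdha, the flavoprotein that oxidises succinate, was at 593, 587, 588 and 588 CPM in the control libraries, 596, 602, 574 and 587 CPM in the Hdac1-deficient libraries and 694, 681, 659 and 673 CPM in the Hdac2-deficient libraries. Its Hdac2-deficient libraries lay above all others, while those of Hdac1 mutants overlapped control. Sdhb, the iron-sulphur subunit, stood at 236, 221, 221 and 235 CPM in the control libraries, 241, 248, 246 and 247 CPM in the Hdac1-deficient libraries and 276, 273, 266 and 276 CPM in the Hdac2-deficient libraries. Both mutants lay above control without overlap. Of the membrane anchors, Sdhc was at 308, 291, 294 and 298 CPM in the control libraries, 265, 277, 269 and 266 CPM in the Hdac1-deficient libraries and 306, 305, 296 and 300.2 CPM in the Hdac2-deficient libraries. The Hdac1-deficient libraries were lowest. Sdhd, the other anchor, was at 308, 284, 285 and 296 CPM in the control libraries, 336, 334, 330.3 and 339.9 CPM in the Hdac1-deficient libraries and 346, 329, 333 and 341 CPM in the Hdac2-deficient libraries. Here both mutants lay above control.

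For Sdha the log2 fold change was 0.01 (0.03, adjusted p = 0.71) in Hdac1 mutants and 0.21 (0.03, adjusted p = 1.1e-06) in Hdac2 mutants. The same values were 0.12 (0.03, adjusted p = 0.0029) and 0.27 (0.03, adjusted p = 1e-07) for Sdhb, -0.13 (0.03, adjusted p = 0.00089) and 0.03 (0.03, adjusted p = 0.37) for Sdhc, and 0.20 (0.03, adjusted p = 1.6e-05) and 0.21 (0.03, adjusted p = 3.6e-06) for Sdhd. In Hdac1 mutants 2 of 4 subunits were thus increased and 1 decreased, and in Hdac2 mutants 3 of 4 were increased, where 32.7, 31.9 and 31.4% of all genes were. Between the mutants Sdha, Sdhb and Sdhc differed, by -0.20 (0.03, adjusted p = 2.1e-06), -0.15 (0.03, adjusted p = 0.00014) and -0.17 (0.03, adjusted p = 3.4e-05), whereas Sdhd did not pass the test, at -0.01 (0.03, adjusted p = 0.79).

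In complex III, 3 of 9 nuclear subunits were increased and 2 decreased in Hdac1 mutants, 33.3 and 22.2% beside 32.7 and 31.9% of all genes. In Hdac2 mutants 5 were increased and 1 decreased, 55.6 and 11.1% beside 31.4 and 30.9%. Cyc1, the cytochrome c1 that hands electrons to cytochrome c, was at 391, 359, 362 and 373 CPM in the control libraries, 359, 373, 371 and 373 CPM in the Hdac1-deficient libraries and 438, 417, 415 and 424 CPM in the Hdac2-deficient libraries. All Hdac2-deficient libraries lay above the rest, and the log2 fold changes were 0.00 (0.03, adjusted p = 0.92) and 0.20 (0.03, adjusted p = 9e-06). Uqcrfs1, the Rieske iron-sulphur protein, changed by 0.11 (0.03, adjusted p = 0.0098) and 0.12 (0.03, adjusted p = 0.0021), and Uqcrc1, a core protein, by 0.17 (0.03, adjusted p = 0.00016) and 0.23 (0.03, adjusted p = 4.3e-07). Of the small subunits, Uqcrh was increased, by 0.20 (0.04, adjusted p = 0.0001) and 0.08 (0.03, adjusted p = 0.039), and Uqcrq decreased, at -0.22 (0.04, adjusted p = 6.3e-05) and -0.10 (0.04, adjusted p = 0.017). The call of Uqcrq in Hdac2 mutants was lost without Hdac2-deficient replicate 3 (adjusted p = 0.069). The call of Uqcrh in Hdac2 mutants was lost with DESeq2 (adjusted p = 0.066) and when any library of that comparison other than control replicate 1 was left out (adjusted p = 0.052 to 0.19). Uqcrb stood at 80.0, 89.6, 89.6 and 89.5 CPM in Hdac1-deficient libraries, 108, 91.2, 93.6 and 106 CPM in control libraries and 115, 103, 106 and 106 CPM in Hdac2-deficient libraries. It fell in Hdac1 mutants, at -0.18 (0.05, adjusted p = 0.0082), was not called in Hdac2 mutants, at 0.12 (0.05, adjusted p = 0.062), and gave the largest nuclear difference between the mutants, -0.30 (0.05, adjusted p = 0.00018). It passed in Hdac2 mutants without control replicate 1 or 4 or Hdac2-deficient replicate 2 (adjusted p = 0.0085, 0.044 and 0.049). Of its windows 15.8% are shared.

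Complex IV has subunits with tissue-specific forms, and of its 14 nuclear members tested, 4 were increased and 5 decreased in Hdac1 mutants, 28.6 and 35.7% beside 32.7 and 31.9% of all genes. In Hdac2 mutants 6 were increased and 2 decreased, 42.9 and 14.3% beside 31.4 and 30.9%. Cox6b2, the form known from testis, was the only nuclear member among those tested that changed more than 2-fold. It had 4, 6, 0 and 2 counts in the control libraries, 27, 38, 35 and 32 in the Hdac1-deficient libraries and 29, 29, 32 and 34 in the Hdac2-deficient libraries. Every mutant library was above every control library. The ratio of summed counts per library size was 10.7 (exact 95% interval 5.92 to 21.2) in Hdac1 mutants and 12 (6.65 to 23.9) in Hdac2 mutants, intervals of counting error only. Its log2 fold changes, which rest on few control counts, were 3.38 (0.37, adjusted p = 1.3e-07) and 3.55 (0.39, adjusted p = 8e-08), and ran from 2.94 to 3.93 and from 3.11 to 4.09 under the alternatives. At 1.14 ± 0.0917 and 1.31 ± 0.242 CPM in the mutants it remained far below its ubiquitous counterpart Cox6b1, which was at 269 ± 17.6, 253 ± 4.54 and 267 ± 8.58 CPM in control, Hdac1 mutants and Hdac2 mutants and was not called, at -0.08 (0.04, adjusted p = 0.098) and 0.00 (0.04, adjusted p = 0.97), although the first passed under 3 alternatives (adjusted p = 0.041, 0.044 and 0.025).

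Both genes lie on chromosome 7, and the 250 bases before their RefSeq start sites are shown because they belong to paralogues of which 1 rose and the other was not called. Capitals mark matches, on either strand, to 6 motifs searched: GCATGCGC (NRF1 type), CCGGAAG (ETS type, bound by GABPA), AANATGGCG (YY1 type), AAGGTCA (ERR type), GGGCGG (SP type) and TATAAA. Cox6b1 is at chr7:30626115-30626364 and Cox6b2 at chr7:4753095-4753344, both on the minus strand of GRCm38.p6 and written in the direction of the gene.
Cox6b1: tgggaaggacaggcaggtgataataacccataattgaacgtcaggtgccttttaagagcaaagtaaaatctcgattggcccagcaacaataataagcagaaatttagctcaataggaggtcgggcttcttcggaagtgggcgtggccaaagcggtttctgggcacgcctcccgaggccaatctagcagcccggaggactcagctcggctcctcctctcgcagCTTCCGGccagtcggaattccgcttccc
Cox6b2: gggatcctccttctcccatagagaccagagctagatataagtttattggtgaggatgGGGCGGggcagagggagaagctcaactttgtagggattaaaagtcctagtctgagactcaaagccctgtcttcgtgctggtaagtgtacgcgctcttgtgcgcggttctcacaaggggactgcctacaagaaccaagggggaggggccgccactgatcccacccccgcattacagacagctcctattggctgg
The Cox6b1 stretch holds an ETS type match whose leftmost base lies 28 bases before the RefSeq start, inside the longest GENCODE transcript, which begins at position 30626151, and the Cox6b2 stretch an SP type match 193 bases before it. They hold 14 and 8 CG dinucleotides, beside a median of 6 over 32851 windows of that length. Windows of 250 bases before to 50 after the start were found for 67 of the 81 nuclear members. Of these 67, 14.9% held the NRF1 type motif, 23.9% the ETS type, 16.4% the YY1 type, 11.9% the ERR type, 40.3% the SP type and 7.46% the TATA motif, beside 3.05, 9.93, 2.76, 5.38, 38.2 and 15.7% of the 27025 genes with such windows. Of the 4 members on chromosome 19, Cox8a and Ndufs8 held the ETS type, Ndufb8 the SP type and Ndufv1 none of the 6 motifs. The part of these motifs in the changes was not tested.

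Cox7a1, the heart and muscle form of another subunit, was at 30.5, 27.1, 24.6 and 28.3 CPM in control, 34.4, 39.7, 37.4 and 37.3 CPM in Hdac1 mutants and 33.0, 33.2, 33.6 and 37.3 CPM in Hdac2-deficient libraries, all mutant libraries being higher. It rose by 0.44 (0.06, adjusted p = 2.3e-06) and 0.32 (0.06, adjusted p = 9.7e-05), while the ubiquitous Cox7a2 gave -0.10 (0.04, adjusted p = 0.048) and 0.04 (0.04, adjusted p = 0.35), its call in Hdac1 mutants being lost under 8 alternatives, among them those without control replicate 1 or 4 or Hdac1-deficient replicate 1 or 4 (adjusted p = 0.13, 0.14, 0.15 and 0.11). Cox6a2, the muscle form of Cox6a1, had 0 to 4 counts in the libraries that list it. Ndufa4l2, the hypoxia-related counterpart of the complex IV subunit Ndufa4, had 0 to 1 counts in control and 1 to 6 in Hdac1-deficient libraries. Its ratio of summed counts per library size was 8.27 (exact 95% interval 1.96 to 73.8, counting error only), from 17 and 2 counts. Ndufa4 was not called, at -0.05 (0.04, adjusted p = 0.31) and -0.10 (0.04, adjusted p = 0.052), although the second passed without control replicate 2 or 3 (adjusted p = 0.017 and 0.0085). It also passed with library size alone, with no filter and with all 12 libraries in 1 fit (adjusted p = 0.0093, 0.036 and 0.02). Cox4i1 was not called either, at -0.03 (0.04, adjusted p = 0.45) and 0.02 (0.04, adjusted p = 0.7). Cox7b, on the X chromosome, was increased by 0.12 (0.04, adjusted p = 0.0094) and 0.14 (0.04, adjusted p = 0.0026), the first lost without control replicate 3 (adjusted p = 0.051). Cox7c fell in both, at -0.24 (0.04, adjusted p = 3.9e-05) and -0.16 (0.04, adjusted p = 0.0056), with 19.7% of its windows shared. Cox5a and Cox6c were higher in Hdac2 mutants, at 0.17 (0.04, adjusted p = 0.00038) and 0.14 (0.04, adjusted p = 0.0028) against control, and differed from Hdac1 mutants by -0.19 (0.04, adjusted p = 0.00015) and -0.20 (0.04, adjusted p = 0.0001). Cox6a1 gave -0.10 (0.04, adjusted p = 0.034) and 0.07 (0.04, adjusted p = 0.11), the first of which was lost with DESeq2 (adjusted p = 0.051) and without control replicate 1 or 4 or Hdac1-deficient replicate 1 or 4 (0.12, 0.06, 0.1 and 0.067).

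In the ATP synthase, 5 of 15 nuclear subunits were increased and 3 decreased in Hdac1 mutants, 33.3 and 20% beside 32.7 and 31.9% of all genes. In Hdac2 mutants 4 were increased and 1 decreased, 26.7 and 6.67% beside 31.4 and 30.9%. Atp5b, the catalytic beta subunit, was not called against control, at -0.04 (0.03, adjusted p = 0.31) and 0.06 (0.03, adjusted p = 0.11), and the alpha subunit Atp5a1 was lower in Hdac1 mutants, at -0.13 (0.03, adjusted p = 0.0016), beside -0.02 (0.03, adjusted p = 0.48) in Hdac2 mutants. The rotor ring is made of an identical protein encoded by 3 genes, and these moved in different directions. Atp5g1 was at 168, 149, 153 and 152 CPM in the control libraries, 175, 181, 179.8 and 179 CPM in the Hdac1-deficient libraries and 188, 183, 185 and 190.3 CPM in the Hdac2-deficient libraries. Atp5g2 was at 124, 112, 114 and 117 CPM in the control libraries, 83.1, 88.8, 90.5 and 82.0 CPM in the Hdac1-deficient libraries and 104, 104, 102 and 101 CPM in the Hdac2-deficient libraries. Atp5g3, the most abundant, stood at 573, 513, 508 and 541 CPM in the control libraries, 578, 599, 594 and 591 CPM in the Hdac1-deficient libraries and 618, 595, 592 and 615 CPM in the Hdac2-deficient libraries. Atp5g1 and Atp5g3 were above, and Atp5g2 below, every control library in both mutants.

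Their log2 fold changes were 0.21 (0.04, adjusted p = 3.5e-05) and 0.27 (0.03, adjusted p = 5.4e-07) for Atp5g1, -0.43 (0.04, adjusted p = 1.8e-08) and -0.17 (0.03, adjusted p = 0.00014) for Atp5g2, and 0.16 (0.04, adjusted p = 0.00094) and 0.19 (0.03, adjusted p = 6.9e-05) for Atp5g3. Between the mutants only Atp5g2 of these 3 differed, by -0.25 (0.04, adjusted p = 3.1e-06). Atp5f1, a stalk subunit, differed by -0.14 (0.03, adjusted p = 0.0015). Atp5l, of which 69.0% of windows are shared, is uncertain. Atp5sl, which is not a subunit of the synthase, was increased by 0.22 (0.05, adjusted p = 0.00061) and 0.29 (0.05, adjusted p = 2.7e-05), while Atp5s gave -0.12 (0.08, adjusted p = 0.19) and 0.07 (0.09, adjusted p = 0.49).

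**Figure D5:**
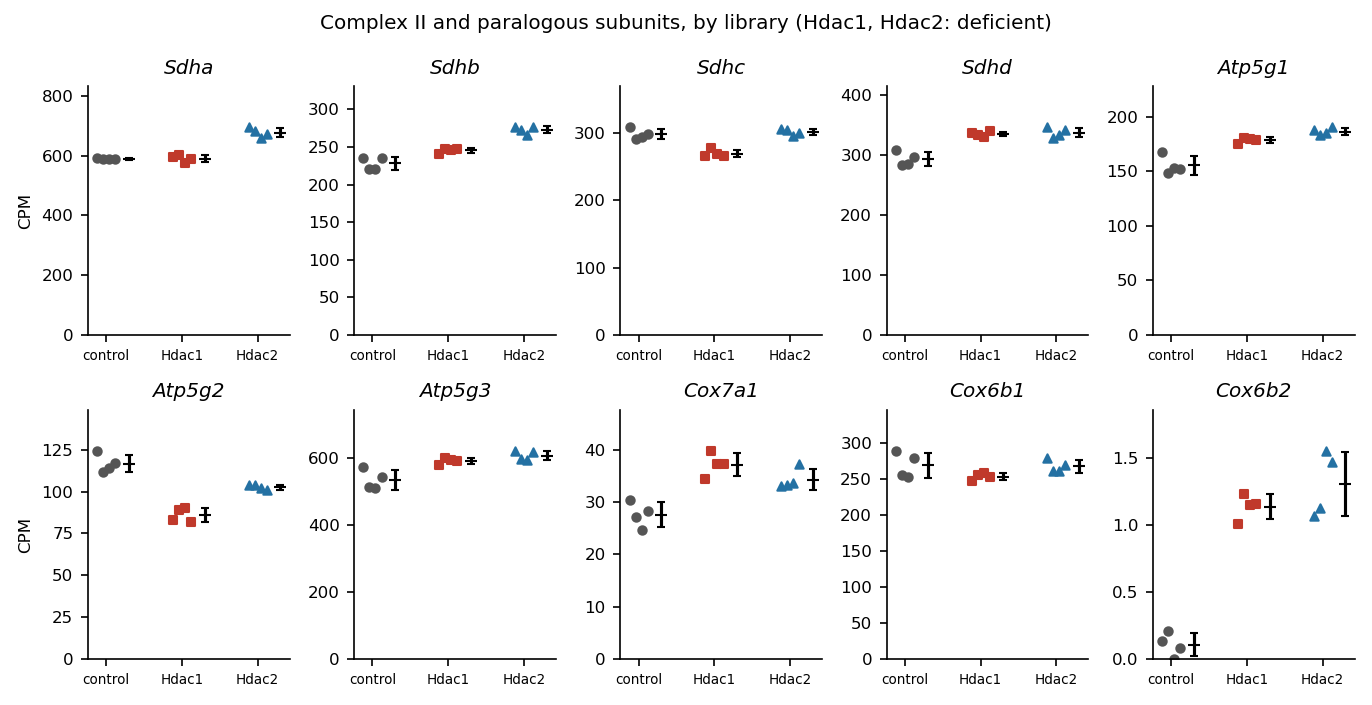
CPM (linear axes from 0, 1 scale per gene) of the 4 complex II subunits, the 3 rotor ring genes, Cox7a1 and the Cox6b paralogues in each library; bars are the mean ± SD of 4 libraries. Sdha is higher in the Hdac2-deficient libraries alone, Atp5g2 falls while Atp5g1 and Atp5g3 rise, and Cox6b2 lies at 0 to 0.211 CPM in control and 1.01 to 1.55 CPM in mutant libraries.

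Genes that make or run the chain without being part of it were counted from lists, whose shares are to be read beside the 32.7% of all genes increased and 31.9% decreased in Hdac1 mutants and the 31.4 and 30.9% in Hdac2 mutants. Of 48 assembly factors tested, 15 were increased and 10 decreased in Hdac1 mutants (31.2 and 20.8%), and 9 and 13 in Hdac2 mutants (18.8 and 27.1%). Lyrm7, which escorts the Rieske protein, fell most, at -1.38 (0.09, adjusted p = 3.1e-11) and -1.17 (0.09, adjusted p = 2.3e-10), followed by Uqcc3, a complex III assembly factor, at -0.90 (0.07, adjusted p = 3.4e-10) and -0.95 (0.06, adjusted p = 4.6e-12). Atpaf2, which helps to build the synthase, rose by 0.56 (0.04, adjusted p = 8e-10) and 0.45 (0.04, adjusted p = 1.5e-08). Ndufaf2, a complex I assembly factor, differed most between the mutants, by 0.68 (0.07, adjusted p = 1.4e-08).

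Of 30 genes for copying and expressing mitochondrial DNA, 7 were increased and 11 decreased in Hdac1 mutants, 23.3 and 36.7% beside 32.7 and 31.9% of all genes. In Hdac2 mutants 5 were increased and 14 decreased, 16.7 and 46.7% beside 31.4 and 30.9%. The mitochondrial RNA polymerase Polrmt was at 37.0 ± 1.55, 46.8 ± 1.59 and 40.8 ± 1.87 CPM (SD, n = 4) in control, Hdac1 mutants and Hdac2 mutants, with log2 fold changes of 0.35 (0.04, adjusted p = 6.6e-07) and 0.15 (0.04, adjusted p = 0.0059). Peo1, the replicative helicase, fell, at -0.58 (0.04, adjusted p = 1.1e-10) and -0.73 (0.04, adjusted p = 1.3e-12). Elac2, which trims transfer RNA ends, also fell, at -0.47 (0.04, adjusted p = 1e-08) and -0.42 (0.04, adjusted p = 1.9e-08). Tfam, which packages mitochondrial DNA and starts its transcription, was higher in Hdac1 mutants than in Hdac2 mutants, by 0.21 (0.04, adjusted p = 4.5e-05). Of 77 mitochondrial ribosome genes, 7 were increased and 26 decreased in Hdac1 mutants (9.09 and 33.8%), and 4 and 32 in Hdac2 mutants (5.19 and 41.6%). Mrpl49, of the large subunit, fell, at -0.69 (0.04, adjusted p = 3.8e-12) and -0.74 (0.04, adjusted p = 1.7e-13).

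Of 10 nuclear regulators, 2 were increased and 5 decreased in Hdac1 mutants, 20% and 50% beside 32.7 and 31.9% of all genes. In Hdac2 mutants 3 were increased and 6 decreased, 30% and 60% beside 31.4 and 30.9%. The coactivator Ppargc1a was at 10.5, 11.3, 11.7 and 11.2 CPM in control, 12.7, 11.5, 10.6 and 12.3 CPM in Hdac1 mutants and 22.9, 22.4, 23.5 and 22.8 CPM in Hdac2-deficient libraries. Only the Hdac2-deficient libraries stood apart, with log2 fold changes of 0.09 (0.07, adjusted p = 0.3) and 1.05 (0.06, adjusted p = 1e-12) against control. The mutants differed by -0.96 (0.06, adjusted p = 6.1e-13). Its relative Ppargc1b rose by 0.52 (0.07, adjusted p = 1.3e-06) and 0.27 (0.06, adjusted p = 0.00099), and Pprc1, of the same family, fell, at -0.81 (0.04, adjusted p = 2.3e-13) and -0.80 (0.03, adjusted p = 3.4e-14). The transcription factors Nrf1, Esrra and Yy1 were lower in both, at -0.26 and -0.22, -0.17 and -0.22, and -0.18 and -0.17, and Gabpb1 at -0.30 and -0.23, while Gabpa was not called, at 0.01 (0.04, adjusted p = 0.9) and -0.08 (0.03, adjusted p = 0.051).

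Of 20 mobile carriers and other electron inputs, 7 were increased and 6 decreased in Hdac1 mutants, 35.0 and 30% beside 32.7 and 31.9% of all genes. In Hdac2 mutants 9 were increased and 6 decreased, 45.0 and 30% beside 31.4 and 30.9%. Sqrdl, which passes electrons from sulphide to ubiquinone, rose by 0.78 (0.04, adjusted p = 1.8e-12) and 1.08 (0.03, adjusted p = 5.5e-17), and Coq2, an enzyme of ubiquinone synthesis, fell, at -0.46 (0.04, adjusted p = 1.1e-09) and -0.37 (0.03, adjusted p = 7.4e-09). Adck3, a kinase-like protein of ubiquinone synthesis, differed between the mutants by 0.74 (0.04, adjusted p = 4e-15). Of 18 genes of pyruvate dehydrogenase and the citric acid cycle, 6 were increased and 5 decreased in Hdac1 mutants (33.3 and 27.8%), and 9 and 5 in Hdac2 mutants (50 and 27.8%). Ogdh, of the oxoglutarate dehydrogenase complex, rose by 0.44 (0.03, adjusted p = 5e-10) and 0.53 (0.03, adjusted p = 1.4e-12). Mdh2, the mitochondrial malate dehydrogenase, rose by 0.41 (0.03, adjusted p = 2.6e-10) in Hdac2 mutants.

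Of the genes outside the chain named for a decrease, Uqcc3, Peo1, Mrpl49, Esrra and Pprc1 lie on chromosome 19, like the 4 members described above, and the part of the chromosome in their decrease was not tested.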

How the data were processed

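RNA of 12 enteroid libraries was poly(A)-selected and sequenced with a directional protocol. The authors deposited raw counts per gene in 2 tables, control with Hdac1-deficient and control with Hdac2-deficient libraries; STAR 2.4.0f1, bcl2fastq 1.8.4 and the build GRCm38 are named in the submitters' processing notes, while the counting program and strand setting are not given in the sources used here. The authors also deposited normalised values, a score whose scaling is not given in the sources used here, and their own fold changes and p-values, none of which were used. Groups followed the labels. Libraries with a shared number are not known to come from 1 animal.

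Counts were scaled by TMM, filtered with filterByExpr and tested with edgeR 4.0.16 (robust quasi-likelihood, R 4.3.3), each comparison against control on its 8 libraries and the mutants against each other on all 12, with Benjamini-Hochberg adjustment over all genes tested. Calls needed an adjusted p no higher than 0.05. DESeq2 1.42.0, other scalings and filters, a replicate block and leaving out each library were alternatives. Scripts were tested on simulated data. RPKM used the exonic bases of GENCODE M21. Shared windows were 100-base stretches found letter for letter, on either strand, in a transcript of another gene, overlapping neighbours included. Mitochondrial and chromosome 1 stretches came from the GENCODE M21 transcripts on GRCm38 and promoters from RefSeq on GRCm38.p6.

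Members named were the mitochondrial genes, the redox core, the tissue isoforms, complex II, up to 2 with the largest called change per direction, complex and comparison without overlap, those changed over 2-fold, those called with opposite signs, and up to 3 per direction between the mutants. Other lists gave examples. Some genes that this rule names are not reported here. Members and lists were chosen with earlier results of these data known.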

Additional observations from a re-analysis of the deposited data

Results flagged for a closer look

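In 7 of 165 groups of 4 libraries, 1 library lay far from the others, 4.24% of the groups examined, where chance gives about 1 in 20. Ndufs7 was at 109 CPM in control replicate 1 against 102 to 103 CPM in the other control libraries. Ndufv2 was at 175 CPM in Hdac2-deficient replicate 1 against 159 to 159.6 CPM, and Ndufc2 was at 81.7 CPM in the same library against 69.6 to 71.4 CPM. Uqcrb was at 80.0 CPM in Hdac1-deficient replicate 1 against 89.5 to 89.6 CPM, and Cyc1 at 359 CPM in that library against 371 to 373 CPM. Cox7a1 was at 37.3 CPM in Hdac2-deficient replicate 4 against 33.0 to 33.6 CPM, and Uqcrh at 229 CPM in Hdac2-deficient replicate 3 against 222 to 223 CPM.

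The effect of the mutants differed by at least 0.5 on the log2 scale for 11 mitochondrially encoded members. All were higher in Hdac1 mutants in the direct test. Of all 14510 genes tested there, 22.3% were called higher, and 5.62% were called over 2-fold in either direction. The share of all genes past 0.5 is not given here. In edgeR's quasi-likelihood test the differences were 0.68 for mt-Nd1, 0.76 for mt-Nd2, 0.95 for mt-Nd4, 1.72 for mt-Nd4l, 0.79 for mt-Nd5, 0.71 for mt-Nd6, 0.99 for mt-Cytb, 1.02 for mt-Co2, 0.51 for mt-Co3, 0.95 for mt-Atp6 and 1.28 for mt-Atp8, with adjusted p-values from 9.5e-11 (mt-Cytb) to 0.012 (mt-Nd6).

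Outside the members, the 7 copies on chromosome 1 were summed at 56.5 CPM in Hdac1 mutants, above the 38.8 CPM of control. How many of these reads came from mitochondrial DNA was not tested.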

How the results depend on the processing

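Over all named members and alternatives run, 2642 values stayed on the same side of the threshold, 61 lost and 37 gained a call, and no called value changed sign. The 2 decreases of mitochondrial members in Hdac2 mutants became 0 with DESeq2 and 0 to 3 when 1 library was left out, with 0 without Hdac2-deficient replicate 1 or 2. Nuclear members higher in Hdac1 mutants than in Hdac2 mutants, 2 as reported, were 4 with library size alone and 4 with the mutant libraries alone, and 2 to 5 without 1 library (4 without control replicate 1 or Hdac1-deficient replicate 1, 5 without Hdac2-deficient replicate 1). Members over 2-fold apart between the mutants were 2 to 5 without 1 library, the 5 being without Hdac2-deficient replicate 4. Of all genes called between the mutants, 56.7% were higher with library size alone and 49.0% with the mutant libraries alone, beside 3229 of 6665 as reported. The cause of these changes was not tested. Alternatives chosen after seeing the data count fewer genes. With genes of under 5% shared windows and without mt-Atp8, mitochondrial increases were 5 in Hdac1 mutants and 5 between the mutants. Mitochondrial decreases in Hdac2 mutants were then 0. mt-Atp8, with 0% shared windows and a called decrease in Hdac2 mutants, was left out by hand. Nuclear decreases in Hdac2 mutants were 6 without chromosome 19. The replicate number was also used as a replicate block. Nuclear members increased and decreased were then 17 and 14 in Hdac1 mutants, 35 and 11 in Hdac2 mutants, and 2 and 29 between the mutants. Mitochondrial counts were 12 and 0, 6 and 2, and 12 and 0. Of all genes, the block called 8923 of 14246, 8891 of 14007 and 6706 of 14510 in the same order. Of these calls 50.9, 50.5 and 48.7% were higher. Without the block 9196, 8729 and 6665 genes were called. Under the block Cox7c in Hdac2 mutants lost its call (adjusted p = 0.051), as did Cox6a1 in Hdac1 mutants (0.064). Uqcrb, Ndufa4 and Ndufa1 in Hdac2 mutants gained a call (0.0049, 0.012 and 0.035). Deviations of same-numbered libraries correlated at -0.0455 to 0.0913, and those of differently numbered ones at -0.091 to 0.127. Of 12 libraries, 6 correlated best with their own number. No pairing is given in the sources used here, and these correlations do not decide it. Low counts limit some members: mt-Nd3, mt-Nd4l, Cox6a2 and Ndufa4l2 had at most 32 counts in a library. For mt-Nd3 and mt-Nd4l the parts of depth and of the chromosome 1 copies in this were not tested.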
